A study of Mus musculus with 15 samples.

Results

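The comparison described here set the group labelled HM against the group labelled Control in hypothalamic tissue taken on postnatal day 15 from mice of the outbred CD-1 stock. It used 6 of the 15 samples of the series, 3 in HM and 3 in Control, and it was made over 17481 of the 24831 gene names in the deposited table, those whose level averaged 1 RPKM or more across the 5 groups. RPKM scales the reads of a transcript by its length and by the mapped reads of the library and is thus a level per length, so it can be set side by side between genes. The title of the series concerns thyroid hormone effects that reach a generation called F2. The other 3 groups, PGM, PGF and HF, had 3 samples each and are given here for orientation. Every group was of the same stock, tissue and age, and no agent, dose, genotype or sex is stated for any of them. The sources used here do not say what the codes stand for. The series calls the 3 samples of a group biological triplicates.

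The deposited values were the authors' group means, with 1 value per transcript and group. No difference below therefore has a replicate check, an SD or a p-value, and a single sample that stood apart would not be seen. Sequencing depth is unknown. In bulk tissue, fewer cells of a type and less RNA per cell cannot be told apart. The label of the tissue matched its defining genes, since Avp was at 525 RPKM in HM and 659 in Control, Oxt at 459 and 504, Pmch at 541 and 524, Hcrt at 185 and 178, and Trh at 111 and 135. The median level of the kept genes was 18.4 RPKM in HM and 18.9 in Control.

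The hypothalamus sets appetite, stress, water balance and the thyroid axis through small groups of peptide neurons. Thyroid hormone reaches it through transporters, is activated locally by the deiodinase Dio2, and acts on the nuclear receptors Thra and Thrb. Glucocorticoids, the end product of the stress axis that begins with the peptide Crh, act on the nuclear receptors Nr3c1 and Nr3c2, which bind short palindromic elements in the DNA of their target genes.

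Differences are given as log2(RPKM + 0.5) in HM minus the same value in Control, a scale on which the differences of weakly expressed genes come out too small. Counts are of genes that reached 1.5-fold on that scale. In HM, 118 genes were at least 1.5-fold higher (0.675% of the genes compared) and 151 were at least 1.5-fold lower (0.864%), together 1.54%. After quantile normalization of both columns the split turned to 141 higher and 117 lower. At 2-fold, 25 genes were higher (0.143%) and 13 lower (0.0744%). The median difference over all kept genes was -0.03, and the central 95% of genes lay between -0.43 and 0.34. Differences above 0 were found in 39.8% of the genes and differences below 0 in 59.9%, and these shares are the background for the counts of list members that follow.

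The genes past 1.5-fold sat mostly at low levels. With the genes split by mean level into 4 parts of equal size, 61 were higher and 93 lower in the lowest part, 3.52% of it, while in the highest part 17 were higher and 8 lower, 0.572%. Small RNA names (Snora, Snord, Mir and the like) made up 37 of the 118 higher genes, or 31.4%, and 7 of the 151 lower genes. Names of clones or accessions made up 16 of the higher and 22 of the lower genes. The plot of difference against level shows where the groups of genes described below fall.

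**Figure D1:**
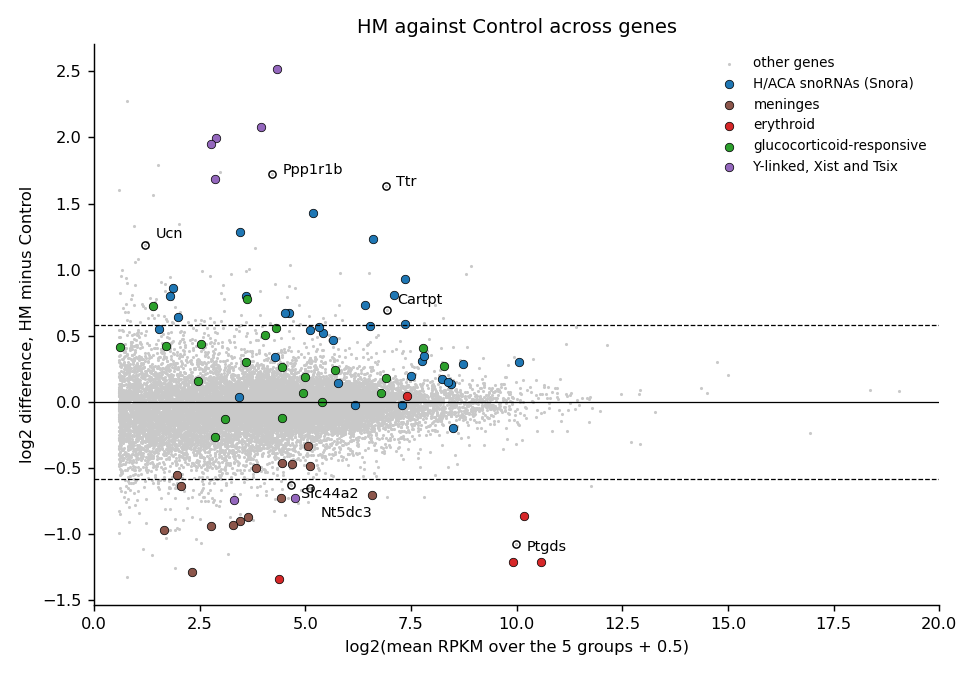
Each point is 1 of the 17481 kept genes, with log2(mean RPKM + 0.5) over the 5 groups on the x axis and the log2 difference, HM minus Control, on the y axis, and dashed lines mark 1.5-fold. Blue H/ACA snoRNAs lie mostly above 0 and brown meningeal genes all below 0, 4 of the 5 red erythroid genes lie below -0.8, and violet points hold 5 Y-linked names at the top with Xist and Tsix below the lower line.

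Genes known from rodent brain to be induced by glucocorticoids were mostly higher in HM. Of 22 listed genes, 21 were kept, and 18 of these were above 0 and 3 below, with a median difference of 0.26. Their summed level was 1116 RPKM in HM, 998 in PGM, 1121 in PGF, 1069 in HF and 935 in Control. The list had the same median in HF, 0.26, while it was 0.01 in PGM and 0.15 in PGF. All 4 groups were set against the one Control, so these medians share its values. Lcn2, a secreted lipid carrier of reactive astrocytes, was under the limit on mean level.

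At the top of the list stood Zbtb16, a zinc finger repressor, with 16.7 RPKM in HM, 10.3 in PGM, 11.25 in PGF, 11.3 in HF and 9.54 in Control. HM was the highest of the 5 groups for it, and its difference was 0.78. Plin4, a coat protein of lipid droplets, was at 3.09 RPKM in HM, 1.24 in PGM, 1.71 in PGF, 2.91 in HF and 1.67 in Control, a difference of 0.72. These 2 genes, 9.52% of the list, were the members that reached 1.5-fold higher, and no member reached 1.5-fold lower.

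Below the threshold, Fkbp5, a cochaperone that dampens the glucocorticoid receptor, was at 21.2 RPKM in HM, 14.6 in PGM, 14.0 in PGF, 15.9 in HF and 14.8 in Control, with HM the highest. Hif3a, an oxygen-response factor, was also highest in HM, at 3.94 RPKM against 2.82 in Control, and between 2.10 and 2.74 in the other groups. Tsc22d3, known as GILZ, an abundant mediator of anti-inflammatory glucocorticoid action, was at 254 RPKM in HM, 206 in PGM, 223 in PGF, 230.3 in HF and 192 in Control. Cdkn1a, a cell cycle inhibitor, was at 13.96 RPKM in HM and between 10.3 and 11.2 in the other 4 groups. Sult1a1, Arrdc2 and Map3k6 differed by 0.56, 0.44 and 0.42.

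Other members stood closer to Control. Sgk1, a kinase that regulates ion channels, was at 50.6 RPKM in HM and 42.6 in Control, a difference of 0.24, but at 57.9 in PGF, so HM was not the highest group. Mt1, a metal-binding metallothionein, was at 327 RPKM in HM, 293 in PGM, 350.2 in PGF, 305 in HF and 271 in Control. Klf9 and Ddit4 differed by 0.06 and 0.002. The members below 0 were Cebpd, Tgm2 and Per1, at -0.27, -0.13 and -0.13.

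Promoters of these genes were searched for the receptor's palindrome. The windows were the RefSeq promoters on build GRCm38.p6, 250 bases before to 50 after each start, the motif was GNACA and TGTNC with 3 bases of any kind between them, where N is also any base, and both strands were read. It was found in 156 of 32851 promoters (0.475%) and in 3 of the 28 promoters matched to listed genes, which belong to 18 of them. The 3 genes that hold it, Map3k6, Mt1 and Sgk1, differed by 0.42, 0.27 and 0.24. Among 19 promoters of immediate early genes, 1 (5.26%) held it, that of Jund, a subunit of the AP-1 factor, which was at 152 RPKM in HM and 187 in Control. Zbtb16, Plin4 and Fkbp5 were not among the genes with the palindrome, and a match of letters in such a window does not show binding. A second motif, TGACGTCA, was searched in the same windows. It was found in 1.79% of all promoters, in 2 of the 28 (7.14%) and in 2 of the 19 (10.5%), with Dusp1 counted in both lists. The 3 windows are printed because they carry the palindrome in genes of the glucocorticoid list, in lower case with the palindrome in capitals. They lie at chr4:133240568-133240867 (plus strand), chr8:94178839-94179138 (plus strand) and chr10:21993640-21993939 (plus strand).
Map3k6: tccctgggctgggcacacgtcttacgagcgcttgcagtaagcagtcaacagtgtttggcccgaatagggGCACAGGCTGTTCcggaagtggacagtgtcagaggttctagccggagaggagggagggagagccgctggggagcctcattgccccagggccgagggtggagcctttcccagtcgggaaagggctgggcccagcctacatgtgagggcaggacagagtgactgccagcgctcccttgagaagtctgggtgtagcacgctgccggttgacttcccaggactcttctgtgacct
Mt1: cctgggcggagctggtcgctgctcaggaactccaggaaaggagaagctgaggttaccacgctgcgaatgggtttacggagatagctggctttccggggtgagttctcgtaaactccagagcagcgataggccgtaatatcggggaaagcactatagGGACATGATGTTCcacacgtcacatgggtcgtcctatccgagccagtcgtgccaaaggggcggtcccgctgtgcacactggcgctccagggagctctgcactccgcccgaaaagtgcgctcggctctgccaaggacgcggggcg
Sgk1: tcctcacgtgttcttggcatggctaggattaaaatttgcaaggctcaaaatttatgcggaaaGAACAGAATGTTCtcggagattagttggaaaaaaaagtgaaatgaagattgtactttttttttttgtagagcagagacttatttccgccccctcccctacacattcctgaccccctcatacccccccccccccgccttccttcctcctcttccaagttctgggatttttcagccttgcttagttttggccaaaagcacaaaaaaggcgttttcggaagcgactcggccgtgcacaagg

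The stress axis itself gave values in both directions. Ucn, the peptide urocortin of the Crh family (chromosome 5, 31138063 to 31138829 in GRCm38), was at 3.71 RPKM in HM, 0.73 in PGM, 1.16 in PGF, 2.07 in HF and 1.35 in Control. HM was the highest group and the difference from Control was 1.19, which is 2.28-fold. Crh was at 10.6 RPKM in HM, 9.62 in PGM, 9.48 in PGF, 11.5 in HF and 9.19 in Control. Its binding protein Crhbp differed by 0.01 and its receptors Crhr1 and Crhr2 by 0.14 and -0.33. Ucn3, another peptide of the family, was at 3.77 RPKM in HM and 4.56 in Control. The receptors that bind glucocorticoids differed little, Nr3c1 by -0.07 and Nr3c2 by -0.04, and Hsd11b1, which regenerates active glucocorticoid, by 0.03. Over the 10 kept members of the list, 5 were above 0 and 5 below, 1 was at least 1.5-fold higher, and Hsd11b2, Avpr1b and Ucn2 were under the limit on mean level.

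Few genes set HM apart from all 4 other groups. By at least 1.5-fold, 5 genes were above every other group in HM (0.0286% of the genes) and 3 were below every other group (0.0172%). The same counts were 8 (0.0458%) and 10 (0.0572%) in PGM and 38 (0.217%) and 9 (0.0515%) in PGF. They were 18 (0.103%) and 10 (0.0572%) in HF, and 4 (0.0229%) and 35 (0.2%) in Control. Control, the group every comparison here is set against, was thus the group with the most genes below all others.

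The 5 genes above were Ucn, Mir707, Snord45c and the clone transcripts AK049668 and AK078363. Snord45c, a small nucleolar RNA of the C/D box class, was at 5.90 RPKM in HM, 1.85 in PGM, 1.36 in PGF, 3.21 in HF and 3.23 in Control. AK078363 was at 3.24 RPKM in HM and between 0.71 and 1.10 elsewhere, and AK049668 at 2.51 RPKM in HM and between 0.49 and 0.85 elsewhere. All 5 were under 6 RPKM in HM.

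The 3 genes below every other group were higher in level. Slc44a2, a choline transporter (chromosome 9, 21320698 to 21355028), was at 16.8 RPKM in HM, 26.6 in PGM, 26.1 in PGF, 27.6 in HF and 26.2 in Control. The 4 other groups lay within 1.5 RPKM of each other, and HM was 1.54-fold below Control. Nt5dc3, a gene of the nucleotidase family (chromosome 10, 86779005 to 86838389), was at 17.2 RPKM in HM, 43.4 in PGM, 56.3 in PGF, 26.9 in HF and 27.3 in Control. For this gene the other groups also differed among themselves. Hist1h1b, a linker histone, was at 9.65 RPKM in HM, 17.1 in PGM, 14.9 in PGF, 16.2 in HF and 15.3 in Control.

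**Figure D2:**
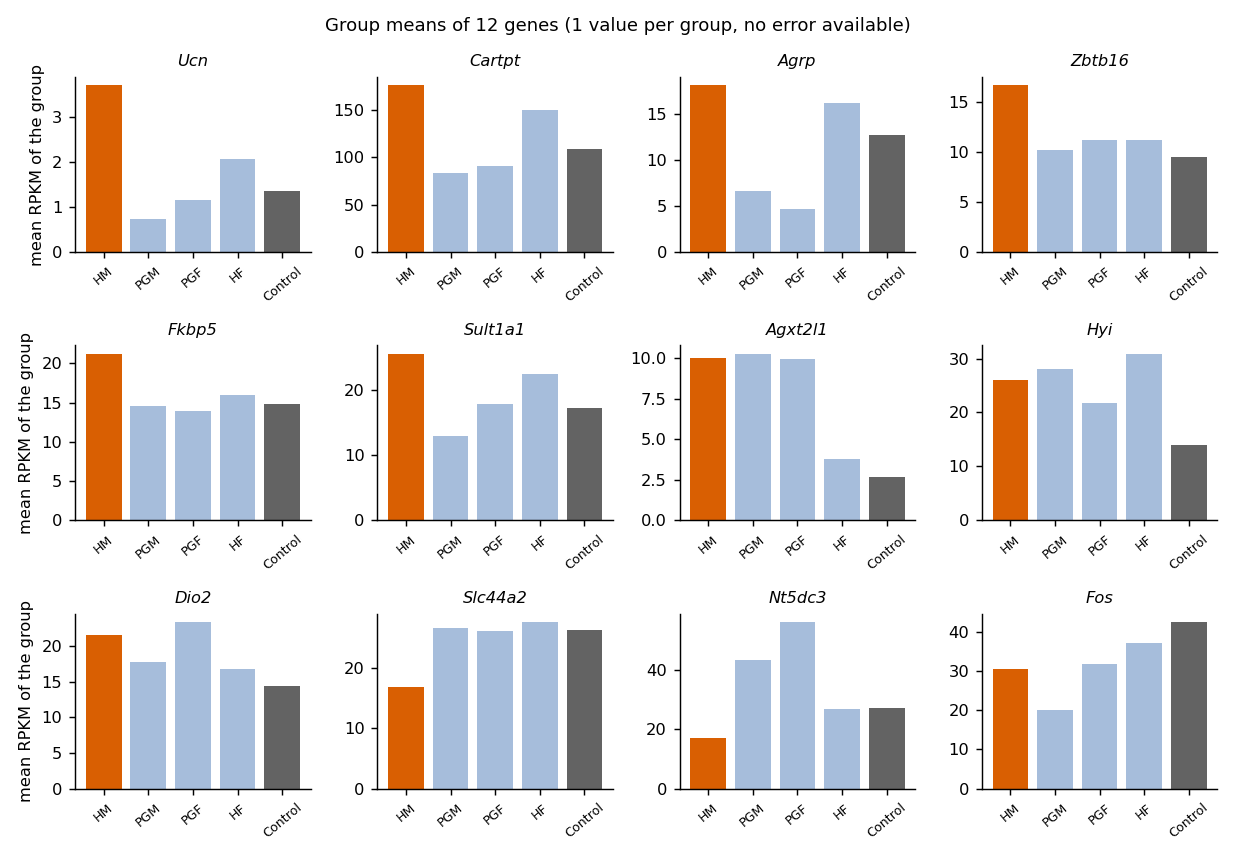
Bars give the group mean in RPKM, from 0, of 12 genes in HM (orange), PGM, PGF and HF (light blue) and Control (grey), with 1 value per group and no error available. Ucn and Zbtb16 are highest and Slc44a2 and Nt5dc3 lowest in HM, while Agxt2l1 is near 10 RPKM in HM, PGM and PGF and under 4 RPKM in HF and Control.

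Peptides of feeding showed single genes that differed and no shared direction. Cartpt, which lowers appetite and is made in several hypothalamic nuclei, was at 175 RPKM in HM, 83.5 in PGM, 90.8 in PGF, 149.6 in HF and 108 in Control. HM and HF were above Control and PGM and PGF below it. Agrp, a peptide of the arcuate nucleus that stimulates appetite, was likewise above Control in HM and HF and below it in PGM and PGF, with 18.1 RPKM in HM, 6.58 in PGM, 4.64 in PGF, 16.2 in HF and 12.7 in Control. Npy, made in the same neurons, was at 100.5 RPKM in HM and 103.0 in HF, at 69.5 and 62.5 in PGM and PGF, and at 83.5 in Control. Of the 12 members of the list, 6 were above 0 and 6 below, and Cartpt was the member past 1.5-fold. Pomc, which opposes Agrp, differed by -0.11, and Cpe, the carboxypeptidase that trims these peptides, was at 2211 RPKM in HM and 1957 in Control. Ghrh, the releasing hormone for growth hormone, was at 11.02 RPKM in HM and 10.85 in Control, and Gal, the galanin gene, at 38.7 and 46.2.

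The peptides of the lateral hypothalamus differed less. Pmch, the precursor of melanin-concentrating hormone, and Hcrt, the orexin precursor, differed by 0.05 and 0.06. The 10 members of that list had a median of -0.02, which turned to 0.01 under quantile normalization. Receptors for energy signals were below 0 in 15 of 20 kept members, none past 1.5-fold, with a median of -0.10. Glp1r, the receptor for glucagon-like peptide, was at 8.93 RPKM in HM and 11.7 in Control, Lepr, the leptin receptor, at 3.37 and 4.26, and the calcitonin receptor Calcr at 25.6 and 30.5. The ghrelin receptor Ghsr was close to Control, at 3.97 RPKM in HM and 3.81 in Control.

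Factors that pattern the hypothalamus were lower. Of 25 listed, 22 were kept, 18 were below 0 and 4 above, and the median was -0.25. Their summed level was 174 RPKM in HM, 160.2 in PGM, 142 in PGF, 195 in HF and 198 in Control. Otp, a homeobox factor of the neurons that make vasopressin and oxytocin, was at 5.07 RPKM in HM, 3.56 in PGM, 3.15 in PGF, 6.05 in HF and 8.45 in Control, and it was the member past 1.5-fold. Sim1, which acts in the same neurons, was at 4.39 RPKM in HM and 5.68 in Control, Fezf1, a factor of the ventromedial nucleus, at 7.47 and 9.65, and Vax1 at 5.72 and 7.78. Nkx2-1, which specifies the ventral hypothalamus, was at 19.2 RPKM in both groups. The largest of the 4 differences above 0 was that of Lhx2, a factor also of thalamus, at 6.71 RPKM in HM and 4.72 in Control. In the list of the oxytocin and vasopressin system, which also holds Otp and Sim1, 8 of 9 members were below 0, and Otp was again the member past 1.5-fold. Genes of reproduction showed a median of -0.08 over 10 kept members, which turned to 0.01 with a mean of 3 RPKM or more, with none past 1.5-fold. Kiss1, the peptide that drives gonadotropin release, was at 2.34 RPKM in HM, 1.19 in PGM, 1.09 in PGF, 2.73 in HF and 2.90 in Control, and Gnrh1 was at 9.69 RPKM in HM and 9.28 in Control.

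The thyroid axis, which the title of the series concerns, had a median of -0.06 over 18 kept members of its list. Of these, 7 were above 0 and 11 below, and the lowest difference was -0.54. None was at least 1.5-fold lower. At least 1.5-fold higher were 2 members (11.1%, against 0.675% of all genes compared). These were Ttr, the thyroxine carrier, and Crym, a cytosolic protein that binds the hormone. Crym was at 10.1 RPKM in HM, 21.2 in PGM, 7.96 in PGF, 13.9 in HF and 4.83 in Control, so Control was the lowest group. Dio2 was at 21.6 RPKM in HM, 17.7 in PGM, 23.5 in PGF, 16.8 in HF and 14.5 in Control, a difference of 0.56 that stopped short of 1.5-fold. Dio3, which inactivates the hormone, was under the limit on mean level.

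Among transporters, Slco1c1, which carries thyroxine across the vessel wall, was at 43.8 RPKM in HM and 39.4 in Control. Thra was at 383 RPKM in HM and 404 in Control, and Thrb at 11.9 and 10.6. Trh, which starts the axis, differed by -0.28, its receptor Trhr by -0.20 and its degrading enzyme Trhde by -0.36.

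Genes known to respond to thyroid hormone in brain were above 0 in 8 of 15 kept members and below in 7, with none past 1.5-fold and a median of 0.06, which turned to -0.01 with no filter and with summed transcripts. Hr, a corepressor and direct target, was at 28.9 RPKM in HM, 32.7 in PGM, 31.1 in PGF, 24.0 in HF and 21.95 in Control. Itih3 was at 111 RPKM in HM and 80.7 in Control, and Nrgn, a postsynaptic protein, at 87.7 and 74.0. In the other direction, Dbp, a clock output gene, was at 60.4 RPKM in HM and 74.8 in Control, Kcnj10, a potassium channel of astrocytes, at 170.3 and 196.6, and Shh at 7.08 and 8.20.

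Immediate early genes, which neurons switch on within minutes of activity, were mostly lower in HM. Of 23 listed, 22 were kept, 17 were below 0 and 5 above, the median was -0.25 and none reached 1.5-fold. Fos was at 30.4 RPKM in HM, 19.9 in PGM, 31.7 in PGF, 37.2 in HF and 42.4 in Control. Npas4 was at 2.22 RPKM in HM and 3.52 in Control, Nr4a1 at 8.21 and 12.2, and Junb at 26.5 and 38.7. Dusp1, a phosphatase that is both an immediate early and a glucocorticoid-induced gene, was on the other side, at 19.96 RPKM in HM and 16.6 in Control. Arc, a synaptic immediate early gene, was at 21.4 RPKM in HM and 19.98 in Control.

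Genes of dividing cells were also lower. Of 22 kept members, 19 were below 0, none reached 1.5-fold, and the median was -0.30. Their sum was 203 RPKM in HM, 216 in PGM, 226 in PGF, 236 in HF and 236 in Control, with HM the lowest group. Mki67, the proliferation antigen, was at 1.70 RPKM in HM and 2.58 in Control, and Top2a, a topoisomerase of replicating cells, at 2.56 and 3.72. Pcna, the most abundant member, did not follow, at 56.8 RPKM in HM and 56.2 in Control. Markers of oligodendrocyte precursors, a dividing cell of this age, had a median of -0.23, and 7 of the 8 were below 0. Matn4 was at 18.1 RPKM in HM and 22.6 in Control, and Pdgfra at 55.0 and 65.6.

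Small differences of 1 sign ran through several families. Replication-dependent histone genes were below 0 in 59 of 60 kept members, with a median of -0.10 and Hist1h1b alone past 1.5-fold. Many of these histone genes are near-identical copies that can share reads, so these are not 60 separate counts. Enzymes that modify DNA or histones were below 0 in 29 of 33, with a median of -0.11. Kdm6b, a demethylase of histone H3, was at 5.35 RPKM in HM, 5.32 in PGM, 4.39 in PGF, 6.09 in HF and 8.91 in Control, the member past 1.5-fold. Tet1 and Tet3, which oxidise methylcytosine, were at 17.0 and 13.1 RPKM in HM and at 24.2 and 18.7 in Control, and Dnmt3a, which adds the methyl group, at 69.8 in HM and 95.7 in Control. Clustered protocadherins, the cell surface labels of neurons, had a median of -0.11, and 53 of 59 were below 0. Members of the alpha and gamma clusters share their last exons and thus reads, so these are not 59 separate counts. The 22 beta members, which have exons of their own, had a median of -0.08 with 16 below 0. For imprinted genes the median was -0.14, with 26 of 31 below 0, and 2 were at least 1.5-fold lower. Those were Mest, at 105 RPKM in HM, 87.8 in PGM, 98.1 in PGF, 147 in HF and 174 in Control, and the growth factor Igf2, also a meningeal marker, at 74.8 RPKM in HM and 122 in Control.

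Chaperones leaned the other way. Of 24 kept genes of the heat shock and unfolded protein responses, 23 were above 0, with a median of 0.12 and none past 1.5-fold. Hspa1a and Hspa1b, the heat-inducible chaperones, were near-identical copies and are uncertain as single genes, at 14.9 and 16.8 RPKM in HM and at 12.3 and 13.6 in Control. Sdf2l1, of the endoplasmic reticulum, was at 31.0 RPKM in HM and 26.5 in Control, and Hsph1 was the member below 0, at 99.2 and 116. Nuclear genes of oxidative phosphorylation had a median of 0.03 over 85 kept members, with 63 above 0. Cytosolic ribosomal proteins had a median of -0.04 with 63 of 78 below 0. The ribosomal median lay close to that of all genes, -0.03, and the oxidative phosphorylation median slightly above it. Over all genes, 39.8% were above 0 and 59.9% below. Among oxidative phosphorylation genes, the muscle-type subunit Cox6a2 was at 17.4 RPKM in HM and 9.55 in Control, and Cox8b at 0.32 and 1.13.

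**Figure D3:**
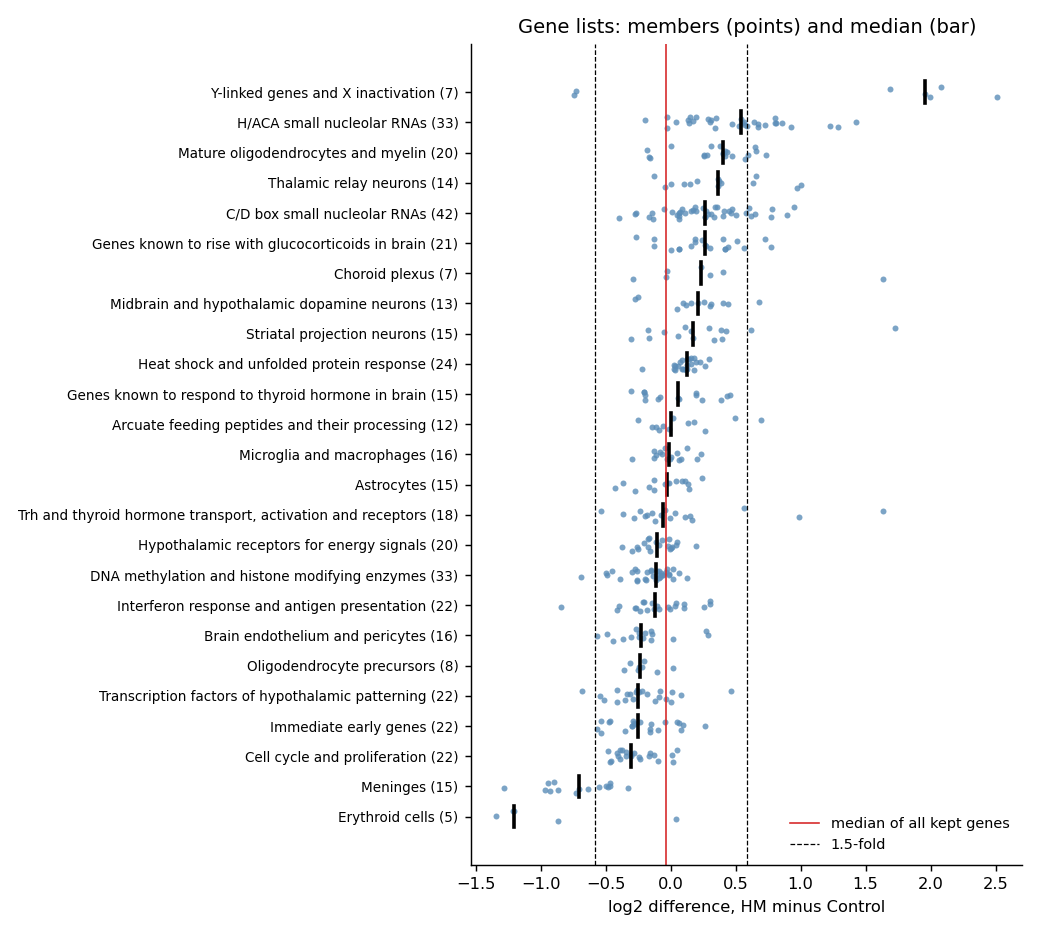
For 25 gene lists, points give the log2 difference, HM minus Control, of each kept member (their number in brackets) and the bar its median, with lists ordered by median and dashed lines at 1.5-fold. Medians run down to -0.71 for meningeal and -1.21 for erythroid genes, and the H/ACA snoRNAs and the glucocorticoid list have medians of 0.54 and 0.26, against -0.03 for all kept genes (red line).

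Small nucleolar RNAs guide chemical modification of other RNAs, C/D box RNAs for methylation and H/ACA RNAs for pseudouridine, and most are cut from introns of host genes. H/ACA snoRNAs were the family with the largest share past 1.5-fold in HM among the 13 families defined by name. Of 33 kept, 30 were above 0, 13 (39.4%) were at least 1.5-fold higher and none lower, with a median of 0.54. Their sum was 4598 RPKM in HM, 4976 in PGM, 6035 in PGF, 4575 in HF and 3753 in Control, so Control was the lowest of the 5 groups.

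Snora47 (chromosome 13, 95330600 to 95330737) was at 47.0 RPKM in HM, 26.7 in PGM, 55.4 in PGF, 31.8 in HF and 17.2 in Control, a difference of 1.43. Snora81 was at 83.9 RPKM in HM, 35.1 in PGM, 202 in PGF, 127 in HF and 35.5 in Control. Snora64 was at 153 RPKM in HM, 130.02 in PGM, 263 in PGF, 186 in HF and 80.1 in Control. In each of these HM lay below PGF, and its place among the other groups varied. Abundant members differed less, with Snora74a at 1061 RPKM in HM and 859 in Control, and Snora44 was below 0, at 277 and 318.

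C/D box snoRNAs were above 0 in 35 of 42 kept members, 7 of them at least 1.5-fold higher and none lower, with a median of 0.26. A further 16 C/D box names were under the limit on mean level, and past 1.5-fold more of these were lower than higher. Snord92 was at 0.27 RPKM in HM and 1.5 in Control, and Snord70 at 0.35 and 0. Snord88c was at 7.79 RPKM in HM and 3.79 in Control, and Snord89 at 49.98 and 35.98. Spliceosomal RNAs of the minor spliceosome stood out among other small RNAs. Rnu11 (chromosome 4, 132270080 to 132270213) was at 416 RPKM in HM, 363 in PGM, 994 in PGF, 440.2 in HF and 204 in Control, and Rnu12 (chromosome 15, 83149644 to 83149794) at 374 in HM, 312 in PGM, 985 in PGF, 383 in HF and 191 in Control. Both were lowest in Control and close to 2-fold higher in HM, at 2.04-fold and 1.96-fold. Vaultrc5, a vault RNA, was at 42.6 RPKM in HM and 25.4 in Control. Rpph1, the RNA of RNase P, was at 32943 RPKM in HM and 28624 in Control, and Rmrp at 22630 and 21559, differences of 0.20 and 0.07. No source used here tells how well such short RNAs were retained in each library, and its part in these differences was not tested.

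**Figure D4:**
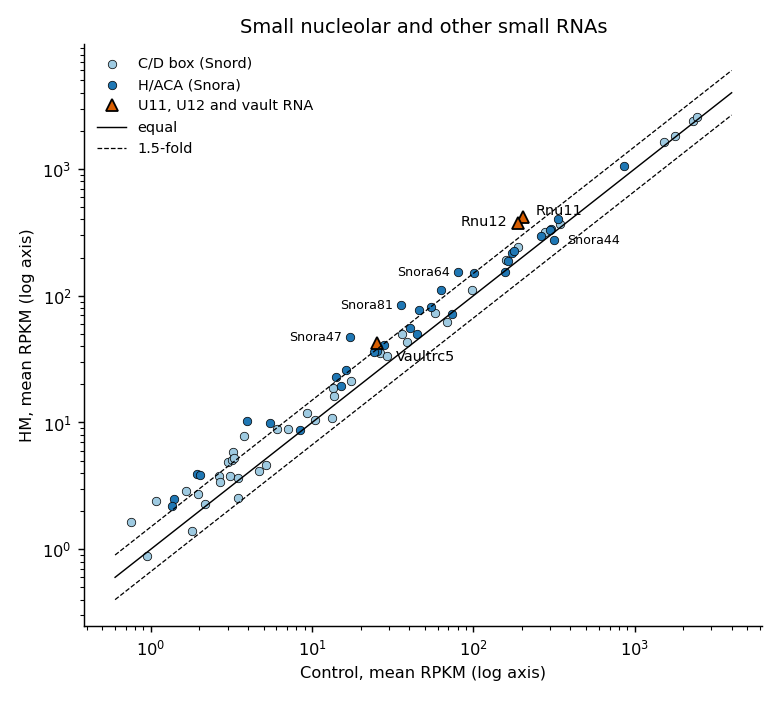
Each point is a small RNA gene, with its mean RPKM in Control on the x axis and in HM on the y axis, both log axes, and lines for equal levels and 1.5-fold. H/ACA snoRNAs (dark blue) lie above the line of equal levels in 30 of 33 cases, and Rnu11 and Rnu12 (triangles) lie at 416 and 374 RPKM in HM and at 204 and 191 RPKM in Control.

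Genes of microRNAs, which repress messages that pair with bases 2 to 8 of the mature RNA, went both ways. Of 321 names, 70 were kept, 34 were above 0 and 36 below, 13 were at least 1.5-fold higher and 7 lower. In this table reads of the mature RNA, its hairpin and its host transcript cannot be told apart, and the members named here are under 5 RPKM. Mir707 (chromosome 7, 44849699 to 44849771) was at 4.68 RPKM in HM, 2.04 in PGM, 1.52 in PGF, 1.17 in HF and 1.25 in Control, the highest in HM. Mir212 (chromosome 11, 75173388 to 75173478), known in neurons as induced by activity through the factor CREB, was at 1.73 RPKM in HM, 2.39 in PGM, 4.36 in PGF, 3.22 in HF and 4.84 in Control, the lowest in HM. Mir9-2 was at 1.92 RPKM in HM and listed at 0 in Control.

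Mir654 and Mir679 lie in the imprinted miRNA cluster of chromosome 12. Mir654 was at 3.01 RPKM in HM, 2.54 in PGM, 2.05 in PGF, 0.79 in HF and 1.02 in Control, and Mir679 at 2.29 in HM, 1.41 in PGM, 1.34 in PGF, 1.49 in HF and 0.84 in Control. Over the 22 kept Mir names between 109544541 and 109747960 of that chromosome, 8 were above 0 and 14 below, 5 were at least 1.5-fold higher and 2 lower, and their sum was 77.4 RPKM in HM and 80.3 in Control. The cluster as a whole had no shared direction. Mir344g (chromosome 7) was at 2.06 RPKM in HM and 4.73 in Control, and Mir344-2, which shares the seed of its 5p arm, at 0.98 and 1.5. The mature sequences of these miRNAs, from RefSeq on GRCm38.p6, are shown with the seed in capitals. The last 2 lines share the seed GUCAGGC, and no other seed shown is shared.
mmu-miR-707: cAGUCAUGccgcuugccuacg
mmu-miR-654-3p: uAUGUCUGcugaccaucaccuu
mmu-miR-679-5p: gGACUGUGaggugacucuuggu
mmu-miR-212-3p: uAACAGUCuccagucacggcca
mmu-miR-344g-5p: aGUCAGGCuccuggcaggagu
mmu-miR-344-5p: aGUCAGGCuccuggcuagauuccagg

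Markers of the thalamus, which lies above the hypothalamus, were higher in HM. All 14 listed genes were kept, 12 were above 0 and 4 (28.6%) at least 1.5-fold higher, with a median of 0.36. Prkcd, a kinase of thalamic relay neurons, was at 69.2 RPKM in HM, 154 in PGM, 156 in PGF, 38.2 in HF and 35.0 in Control. Tnnt1, a troponin also found in thalamic neurons, was at 9.77 RPKM in HM, 20.95 in PGM, 18.3 in PGF, 7.58 in HF and 4.62 in Control. HM lay between Control and the groups PGM and PGF for both. The marker Calb2, abundant in hypothalamus too, was at 386 RPKM in HM and 421 in Control. The part of neighbouring tissue in the lower values of hypothalamic factors was not tested.

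Striatal genes had a median of 0.17, with 11 of 15 above 0 and 2 past 1.5-fold. Ppp1r1b, a phosphatase inhibitor of dopamine-receptive neurons (chromosome 11, 98348404 to 98357796), was at 13.4 RPKM in HM, 40.4 in PGM, 19.2 in PGF, 13.9 in HF and 3.70 in Control, and Adora2a, the adenosine receptor of indirect pathway neurons, at 3.62 in HM, 11.7 in PGM, 4.58 in PGF, 5.74 in HF and 2.19 in Control. Control was the lowest group for both. Penk and Tac1, peptides of both striatum and hypothalamus, differed by -0.05 and -0.16. Genes of dopamine neurons were above 0 in 11 of 13 kept members, with En2, a midbrain homeobox factor, past 1.5-fold at 1.34 RPKM in HM and 0.65 in Control. Th, the enzyme that makes dopamine, was at 74.3 RPKM in HM, 48.1 in PGM, 82.5 in PGF, 103 in HF and 62.0 in Control, and Slc6a3, the dopamine transporter, at 76.9 in HM, 45.95 in PGM, 110 in PGF, 123 in HF and 58.1 in Control. Cortical genes had a median of -0.01 over 11 kept members, with none past 1.5-fold.

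Of other genes of neurons, Gabrd, Pvalb and Rab37 were among the largest differences, and Kcnab3 differed less. Gabrd, the subunit of extrasynaptic GABA receptors, was at 17.5 RPKM in HM, 43.7 in PGM, 42.2 in PGF, 9.72 in HF and 8.28 in Control. Pvalb, the calcium buffer parvalbumin (chromosome 15, 78191114 to 78206400), was at 59.9 RPKM in HM, 68.8 in PGM, 84.2 in PGF, 38.4 in HF and 30.3 in Control, a difference of 0.97. Rab37, a GTPase of secretion, was at 11.5 RPKM in HM, 21.7 in PGM, 23.3 in PGF, 5.80 in HF and 4.86 in Control. Kcnab3, an auxiliary potassium channel subunit, was at 15.8 RPKM in HM, 16.5 in PGM, 18.3 in PGF, 13.1 in HF and 9.84 in Control. In these 4 genes HF was the group nearest to Control. Across 37 subunits of GABA and glutamate receptors, 27 were below 0 and Gabrd was the 1 past 1.5-fold. Synaptic scaffold genes were below 0 in 17 of 21, with Shank1, a postsynaptic scaffold, past 1.5-fold at 19.1 RPKM in HM and 30.5 in Control.

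Myelin genes were above 0 in 17 of 20 members, 4 (20%) of them at least 1.5-fold higher, with a median of 0.40. Mog was at 217 RPKM in HM and 143 in Control, with HF at 162. Trf, the transferrin made by oligodendrocytes, was at 241 RPKM in HM and 174 in Control. Olig1, Olig2 and Sox10, factors shared by precursors and mature cells, differed by 0.01, -0.17 and -0.16. Hapln2, a link protein of the matrix at nodes, was at 8.62 RPKM in HM and 4.16 in Control, a gene chosen after its values were seen. The list's sum was 10576 RPKM in HM, 12346 in PGM, 15370 in PGF, 8261 in HF and 7839 in Control, against thalamic sums of 1015 in HM, 1310 in PGM, 1176 in PGF, 924 in HF and 964 in Control. Both sums were above Control in HM, PGM and PGF, while in HF the myelin sum was above Control and the thalamic sum below it.

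Astrocyte and microglia markers had medians of -0.03 and -0.02, with none past 1.5-fold in 15 and 16 members. Gfap, the filament of astrocytes, was at 181 RPKM in HM and 244 in Control, and Aqp4, their water channel, at 119 and 154. Of 14 kept markers of tanycytes and ependyma, the cells that line the third ventricle, 7 were above 0 and 7 below. Their median was 0.03, and it lay between 0.03 and 0.21 over all settings of the processing. Crym, given with the thyroid axis, was the member past 1.5-fold. Short of it, Ccdc153 differed by 0.54, Dynlrb2 by 0.41 and Nes, a filament gene of progenitors and tanycytes, by -0.37. Agxt2l1, an enzyme that breaks down phosphoethanolamine, was at 10.03 RPKM in HM, 10.3 in PGM, 9.95 in PGF, 3.79 in HF and 2.65 in Control. Hyi, a hydroxypyruvate isomerase (chromosome 4, 118359990 to 118362744), was at 25.95 RPKM in HM, 28.1 in PGM, 21.7 in PGF, 30.9 in HF and 13.9 in Control. HM was not the highest group for either gene, and Control was the lowest for both. GENCODE M21 classes Hyi as a polymorphic pseudogene, a locus intact in some genomes and not in others. The part of such variation in its values was not tested.

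Markers of the meninges, the membranes around the brain, were lower in HM. All 15 listed genes were kept and below 0, and 9 (60%) were at least 1.5-fold lower, with a median of -0.71. Their sum was 237 RPKM in HM, 194 in PGM, 261 in PGF, 422 in HF and 368 in Control, and none was at 0 in either group. Slc22a6, an organic anion transporter, was at 2.26 RPKM in HM, 2.77 in PGM, 3.63 in PGF, 7.39 in HF and 6.22 in Control. Crabp2 and Aldh1a2, which bind and make retinoic acid, were at 4.29 and 6.96 RPKM in HM and at 8.69 and 13.4 in Control.

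Further genes named for the size of their difference are known from meningeal cells. Ptgds, the prostaglandin D synthase of meninges and other brain cells (chromosome 2, 25466709 to 25470046), was at 696 RPKM in HM, 538 in PGM, 803 in PGF, 1544 in HF and 1468 in Control. Slc13a4, a sulfate transporter, was at 5.25 RPKM in HM, 5.21 in PGM, 6.99 in PGF, 13.1 in HF and 12.2 in Control, and Slc6a20a, a transporter of imino acids, at 16.5 in HM and 30.3 in Control. Wnt6, Angptl2, Cdh1 and Slc6a12 were between 1.12 and 2.37 RPKM in HM and between 3.01 and 5.11 in Control. In all of these HF was closer to Control than HM was. Collagens, 3 of which also stand in the meningeal list, were below 0 in 24 of 31 kept members, 4 of them at least 1.5-fold lower, among them Col5a1 at 3.10 RPKM in HM and 6.89 in Control.

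Red cell genes were lower as well, and their list had the lowest median of the lists described, -1.21. Of 5 kept members 4 (80%) were at least 1.5-fold lower. Alas2, the first enzyme of heme synthesis in red cells (X chromosome, 150547375 to 150570638), was at 11.7 RPKM in HM, 13.3 in PGM, 20.4 in PGF, 25.8 in HF and 30.5 in Control. The globins Hbb-b1 and Beta-s, close copies that are uncertain as single genes, were at 589 and 930 RPKM in HM and at 1362 and 2156 in Control, and Hba-a2 was at 797 and 1449. Genes of vessels differed less. Endothelial and pericyte markers had a median of -0.23 and none past 1.5-fold, and 13 of 16 were below 0, with Kdr, a receptor for vascular growth factor, at 9.13 RPKM in HM and 13.75 in Control. Slc2a1, the glucose transporter of the blood-brain barrier, was above 0, at 116 RPKM in HM and 95 in Control. Smooth muscle genes were below 0 in all 8 kept members, with Eln, the elastin gene, past 1.5-fold at 15.9 RPKM in HM and 24.7 in Control. Whether the amount of membrane and blood in the tissue moved other results was not tested.

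The choroid plexus and the pituitary, which adjoin the hypothalamus, showed isolated differences. Ttr, abundant in the plexus, was at 22.8 RPKM in HM, 106 in PGM, 440.5 in PGF, 18.7 in HF and 7.01 in Control. The other 6 kept plexus genes were within 1.5-fold, among them Folr1 at 1.68 RPKM in HM and 1.35 in Control and Kl at 5.85 and 5.98. The list's sum, which includes Ttr, was 47.2 RPKM in HM and 29.8 in Control. Gh, the growth hormone gene, was at 62.1 RPKM in HM, 59.7 in PGM, 1363 in PGF, 16.5 in HF and 39.8 in Control. Of the other pituitary hormones, Cga was at 20.8 RPKM in HM and 26.2 in Control, Lhb at 1.99 and 3.19, and Fshb at 0.35 and 0.83. Fshb was the member at least 1.5-fold lower. It was under 1 RPKM in both groups and met the limit on mean level only through other groups. Interferon and antigen presentation genes were below 0 in 15 of 22 kept members, with Psmb9, an immunoproteasome subunit, past 1.5-fold at 0.90 RPKM in HM and 2.01 in Control.

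Among the lower genes, a set kept nearly the same ratio to each other over the 5 groups. The set was defined after the values were seen and is given as a description. Gm5941, a predicted gene of the X chromosome (92489949 to 92490681 in GRCm38), was at 24.05 RPKM in HM, 33.3 in PGM, 33.6 in PGF, 32.3 in HF and 40.95 in Control. In 16 other genes the ratio to Gm5941 had a coefficient of variation of at most 5% over the groups. Ropn1, a protein of the sperm tail, was at 17.45 RPKM in HM, 24.05 in PGM, 24.4 in PGF, 23.6 in HF and 29.2 in Control, and its ratio varied by 0.83%. Odf4, of the sperm outer dense fibres, was at 14.05 RPKM in HM and 23.7 in Control and varied by 1.29%. Fabp2, a fatty acid binding protein of the intestine, was at 12.3 RPKM in HM and 19.9 in Control, Csrp3, a muscle LIM protein, at 10.6 and 17.6, and Ccl7, a chemokine, at 7.06 and 11.8. These genes are known from tissues that differ from each other, and how the authors' counting assigned reads to them was not tested, so their levels are uncertain. Levels in HM were between 0.567 and 0.668 of those in Control over the whole set. With Gm5941, 14 of them were among the 151 genes at least 1.5-fold lower in HM, which is 9.27%, and without them 137 remained.

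**Figure D5:**
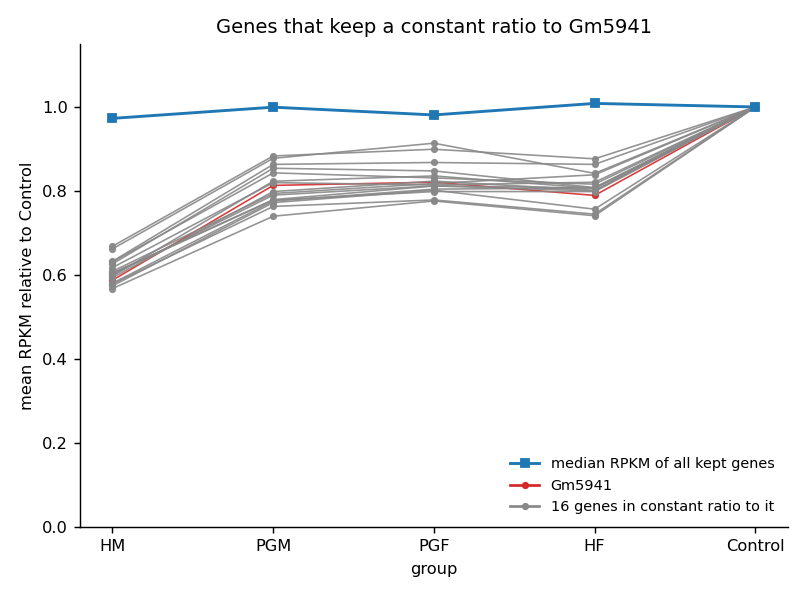
Lines give each gene's mean RPKM divided by its mean RPKM in Control for HM, PGM, PGF, HF and Control, with Gm5941 in red, the 16 genes in constant ratio to it in grey and the median RPKM of all kept genes in blue. The grey and red lines lie between 0.567 and 0.668 in HM and below 1 in the other 3 groups, while the blue line stays close to 1.

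Among the named genes with at least 2 RPKM in HM or Control, the largest differences were of the Y chromosome. Mir9-2 of chromosome 13, under that limit, differed by 2.275. Ddx3y, an RNA helicase (Y chromosome, 1260771 to 1286629), was at 16.75 RPKM in HM, 30.4 in PGM, 32.0 in PGF, 15.9 in HF and 2.52 in Control, a difference of 2.51. Eif2s3y, a translation factor subunit, was at 10.1 RPKM in HM, 27.5 in PGM, 24.75 in PGF, 10.5 in HF and 2 in Control. Kdm5d and Uty, histone demethylases of the Y, were at 5.49 and 5.00 RPKM in HM and at 1 and 0.92 in Control. Smcy is another name of Kdm5d in the table, at 5.48 RPKM in HM and 1.36 in Control. Xist, which coats and silences an X chromosome and is read from positions 103460366 to 103483254 of it, was at 26.4 RPKM in HM, 14.2 in PGM, 11.6 in PGF, 35.4 in HF and 44.0 in Control, and Tsix, its antisense partner, was at 9.32 RPKM in HM and 15.9 in Control. Whether reads were assigned by strand is not stated, so Xist and Tsix cannot be told apart where they overlap. HM and HF lay between Control and the groups PGM and PGF for the Y-linked genes. The sexes in each group are not stated, and their part in the other differences was not tested. Without the genes of both sex chromosomes, 112 genes were at least 1.5-fold higher and 146 lower.

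A transcript listed under the name of an X-linked gene had the pattern of the Y-linked genes. Of the 4 transcripts listed under Ddx3x, the X-linked partner of Ddx3y, 3 were at 163, 165 and 167 RPKM in HM. In Control these 3 were at 165, 167 and 169 RPKM. The fourth, named uc009uzn.2, was at 16.2 RPKM in HM, 29.5 in PGM, 30.9 in PGF, 15.4 in HF and 2.45 in Control. These values lay just below those of Ddx3y in each group. Whether uc009uzn.2 is a transcript of Ddx3y listed under the other name was not tested. Among 8884 gene names with at least 2 transcripts at a mean of 2 RPKM or more, some held transcripts that disagreed. The name Ddx3x was 1 of 4 in which 1 transcript passed 1.5-fold and another lay at or beyond 0 the other way. The others were Hexdc, Chka and Abhd5.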

How the data were processed

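Total RNA of hypothalamus was sequenced in 15 samples, grouped by the code in their titles. The submitters' processing notes name FastQC, Novoalign 2.08 and the build mm10. The sources used here give neither the counting program, nor its handling of strand, isoforms and near-identical genes, nor the number of reads. The deposited table held RPKM as means that the authors made for each group, per the file headers, rounded to 2 decimals, for 49404 transcripts. One header line repeated inside the table was left out.

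The median over transcripts was taken per gene name, and 70.4% of names passed the filter on the mean. With 1 mean per group, limma could not be run, and the plan for such a table was followed, a description of differences with a pseudocount of 0.5 and no test. The counting step was run on simulated group means with known folds. This checks the arithmetic of the counts, without weakly expressed genes, and not the differences reported. Positions on GRCm38, the same assembly as mm10, were matched by symbol to GENCODE M21 for 72.7% of names, and promoters and miRNAs from RefSeq tables.

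Genes were named by a rule, the 20 largest differences in each direction with at least 2 RPKM in HM or Control (predicted, clone and accession names left out), the 10 largest among genes that averaged 20 RPKM or more, up to 6 members of each list described, and all members of 5 lists (feeding peptides, glucocorticoid response, stress peptides and receptors, thyroid axis, sex-linked). Other names given as examples, and members beyond those 6, were picked once their values were known. A few genes that the rule names are not reported here. The 57 lists (44 by symbol, 13 by name pattern) and their members were chosen with earlier results of these data known, of which 9 symbols were matched by a synonym and 7 could not be matched. Alternatives were other pseudocounts, filters, summaries over transcripts, scalings and thresholds. Python 3.11.15, numpy 2.4.6, pandas 2.3.3 and matplotlib 3.10.9 were used.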

Additional observations from a re-analysis of the deposited data

How the results depend on the processing

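The number of genes at least 1.5-fold higher in HM, 118, was 194 with no filter on low values, 75 with a mean of at least 3 RPKM and 25 at a 2-fold threshold. The number lower, 151, was 302, 97 and 13 under the same settings and 100 with a pseudocount of 1. The other alternatives kept the higher count between 81 and 163 and the lower count between 117 and 225, where 81 left out small RNA names and was added after the data were seen. The median over all genes stayed between -0.03 and 0.004. Of 502 list medians recomputed, 463 stayed within 0.05 of their value, 37 moved further and 2 reversed, both of the lens and retina list (0.11), at -0.88 with no filter and -0.035 with summed transcripts. Over 13 lists, 20 medians took the opposite sign, and apart from lens and retina those lists lay at most 0.1125 from 0. Among them, pituitary hormones (-0.11) turned to 0.105 with no filter and cortical genes (-0.01) to 0.03 under quantile normalization. All 440 values of the 51 named genes that could be recomputed kept their direction and their place relative to 1.5-fold. Leaving out 1 sample at a time was not run, since the table holds group means. No paired analysis was possible because the columns carry no replicate numbers. Unknown depth limits most the weakly expressed genes, in which most of the genes past 1.5-fold lie.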

Other observations

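A few genes known from fast-firing neurons, chosen after their values were seen, were higher in HM beside Pvalb and Kcnab3. Scn4b, a sodium channel subunit, was at 18.5 RPKM in HM, 27.8 in PGM, 26.9 in PGF, 12.6 in HF and 9.74 in Control, and Kcng4, a potassium channel subunit, at 8.17 in HM, 7.52 in PGM, 11.9 in PGF, 5.54 in HF and 4.40 in Control. Kcnc1, the potassium channel typical of such cells, was at 35.4 RPKM in HM and 41.4 in Control and so lay on the other side.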
